A study of Mus musculus with 6 samples.

Results

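Semaphorins, plexins and neuropilins form a family of guidance ligands and their receptors. Its members were taken as the transcript clusters (sets of probes for a locus) for which the platform's table gives a single symbol of a class 3 to 7 semaphorin, a plexin or a neuropilin. Of 31 mouse genes with such names in the RefSeq gene table, 27 were measured this way, out of 23332 clusters in all. They are 18 semaphorins, which are the ligands, and 9 receptors, namely 8 plexins and *Nrp1*. The cluster of *Nrp2* also names *Pard3b* and was not used, and *Plxnb3*, *Sema3g* and *Sema4c* were not analysed here. No member had more than 1 cluster.

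The data come from GFP+ cells sorted from the dorsal spinal cord of mouse embryos, and there are 2 arrays for each of 3 stages, namely embryonic days E10.5, E11.5 and E12.5. All 6 arrays share the genotype *Wnt1-cre*;*Rosa26mTmG* and no embryo was treated. In these embryos Cre, made under control of *Wnt1*, turns on membrane GFP, and the descendants of a *Wnt1*-expressing cell keep it. *Wnt1* is expressed in the dorsal neural tube and in the origin of the neural crest, so that both lineages can carry GFP. Whether both arrays of one stage stem from different litters is not given in the sources used here. The p-values then measure only how far these samples spread, which may be technical.

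Plexins are transmembrane receptors whose cytoplasmic part acts on small GTPases and, through them, on the growth cone's cytoskeleton. Class 3 semaphorins are secreted and most bind a neuropilin, which has no signalling domain of its own and joins an A-type plexin. Class 4, 5 and 6 semaphorins span the membrane, class 7 is held there by a lipid anchor, and these classes bind plexins without a neuropilin. In the spinal cord, class 3 semaphorins repel commissural axons that have crossed the floor plate and sort the axons of sensory neurons.

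The signals are on a log2 scale, and a signal was called above the detection limit if its mean over the 6 arrays exceeded 5.85. That limit is the 95th percentile over 840 clusters of odorant, pheromone and taste-type receptors, which these cells should lack, and 42.1% of all clusters lay above it. The same percentile within each array was 6.59, 6.18 and 6.55 for the replicate 1 arrays in order of stage, and 5.38, 5.38 and 5.40 for the replicate 2 arrays. One array differed from the rest, replicate 1 of E10.5, whose mean correlation with the others was 0.890, against 0.948 to 0.955 for the other arrays. All 11 measured neuronal genes lay above the limit, and so did all 11 measured progenitor genes, *Sox2* and *Pax3* among them, although the source label speaks of commissural neurons. Of dorsal interneuron genes, 10 of 15 lay above it, *Lhx2*, *Lhx9* and *Robo3* included. Of endothelial genes 0 of 10 did, and of floor plate genes 0 of 6. Other lists did have genes above it, with 2 of 10 mesenchymal, 5 of 8 roof plate and 2 of 5 red blood cell genes. So did 1 of 10 microglial genes and 1 of 6 motor neuron genes, the last being *Isl1*. Neural crest genes above it were 5 of 8, with *Sox10* and also *Fabp7*, which is on the progenitor list as well. *Foxd3*, *Erbb3* and *Ets1* lay below it. Of genes of dorsal root ganglion neurons 4 of 10 lay above it, with *Isl1* and *Pou4f1*, which are on the dorsal interneuron list as well.

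Of the 27 members, 18 lay above the limit, 8 of them receptors and 10 of them ligands. *Plxnd1* was the one receptor below it. The ligands below it were *Sema3b*, *Sema3d*, *Sema3e*, *Sema4a*, *Sema4d*, *Sema4f*, *Sema4g* and *Sema5a*. Some of the 18 were near it. *Plxnc1*, *Sema3f*, *Sema6b* and *Sema7a* each exceeded the limit of their own array in 3 of 6 arrays, and the mean of *Sema7a* was 5.86. Signals of different genes come from different probes and were not ranked against each other.

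No member differed between stages at an adjusted p under 0.05 in limma, and neither did any of the 23332 clusters (0% for E12.5 against E10.5, E11.5 against E10.5, E12.5 against E11.5 and across the 3 stages). At an unadjusted p under 0.05 the counts of members were also 0. The background share of clusters at that level was 3.98% for E12.5 against E10.5, 1.99% for E11.5 against E10.5, 0.909% for E12.5 against E11.5 and 2.25% across the 3 stages. SEs of the members' log2 differences lay between 0.286 for *Sema5b* and 0.484 for *Sema6d*, and the half-widths of the 95% intervals between E12.5 and E10.5 between 0.67 and 1.14. The values that follow describe these 6 arrays, and the 3 pairwise comparisons share arrays.

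Among the receptors, 3 of the 4 A-type plexins had the largest differences between E12.5 and E10.5. *Plxna2*, a partner of neuropilins that also binds class 6 semaphorins directly, gave log2 signals of 7.33 and 7.79 in the E10.5 arrays, 7.68 and 7.79 in the E11.5 arrays and 8.05 and 8.72 in the E12.5 arrays. Both E12.5 arrays lay above all 4 earlier ones, while the E11.5 and E10.5 arrays overlapped. Its signal averaged 8.39 ± 0.47 at E12.5 and 7.56 ± 0.33 at E10.5 (SD over 2 arrays), a log2 difference of 0.82 with an SE of 0.355, or 1.77-fold. The 95% interval of that difference was -0.01 to 1.66, and limma's unadjusted and adjusted p were 0.0531 and 0.991. The step from E10.5 to the next stage made up 0.17 of it and the step after that 0.65. In an exact permutation test over the 15 partitions of the 6 arrays into 3 pairs, whose smallest p is 0.0667, *Plxna2* had p = 0.2. Without the E10.5 replicate 1 array the E12.5 minus E10.5 difference was 0.59 with an SE of 0.372.

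*Plxna4*, which with *Nrp1* receives Sema3a and on its own Sema6a, had signals of 6.85 and 6.16 in the E10.5 arrays, 6.55 and 6.75 in the E11.5 arrays and 6.92 and 7.81 in the E12.5 arrays. One E12.5 array lay far above the rest and the other just above the higher E10.5 array. The log2 difference of E12.5 minus E10.5 was 0.86 with an SE of 0.414 (unadjusted p 0.0754, adjusted p 0.991 in limma), with 0.07 for replicate 1 and 1.65 for replicate 2. It was 1.21 with an SE of 0.426 without the E10.5 replicate 1 array, and 0.42 without the E12.5 replicate 2 array. *Plxna3*, best known as the partner of neuropilin 2 for Sema3f, had signals of 6.21 and 6.23 in the E10.5 arrays, 6.32 and 6.64 in the E11.5 arrays and 6.63 and 6.90 in the E12.5 arrays. Its stages followed each other upward in both replicate numbers, which held for 1 of 27 members and for 4.89% of all clusters. In replicate 1 the E10.5 signal of *Plxna3* lay below its array's limit (6.21 against 6.59). The later replicate 1 signals lay just above theirs (6.32 against 6.18 and 6.63 against 6.55). The E12.5 minus E10.5 difference was 0.55 with an SE of 0.302 (95% interval -0.17 to 1.26, unadjusted p 0.113 in limma). *Plxna1*, a receptor for class 3 semaphorins together with neuropilins, differed by 0.11 with an SE of 0.359, and its replicate numbers went opposite ways (-0.43 and 0.66). The rule for named genes chose *Plxna2* for this group, and the arrays of *Plxna3* and *Plxna4* were singled out after their values were seen. The 4 A-type plexins had a median difference of 0.68 between E12.5 and E10.5, against -0.10 over all clusters and 0.05 over the 6720 clusters above the limit that name 1 gene. Within replicate 1 that median was 0.25 and within replicate 2 it was 0.80. Without the E12.5 replicate 2 array *Plxna1*, *Plxna2* and *Plxna3* differed by -0.23, 0.49 and 0.41.

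**Figure D1:**
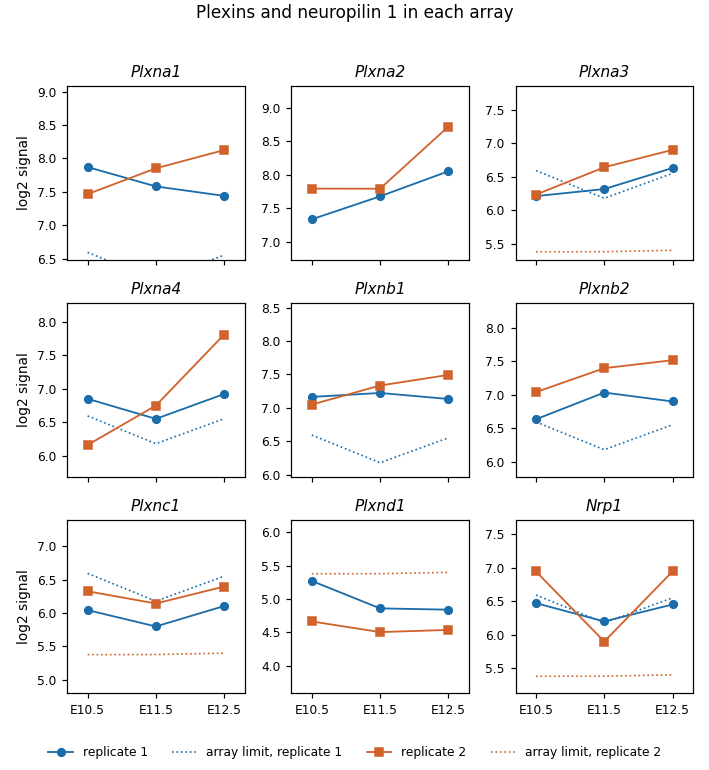
Log2 signal (y axis, a range of the same width in each panel) of the 8 plexins and *Nrp1* by stage (x axis), where each point is 1 array, solid lines join arrays with the same replicate number and dotted lines show each array's own detection limit where it falls in the panel. *Plxna2* has both E12.5 arrays above the other 4, *Plxna4* has 1 E12.5 array at 7.81 far above the rest, and *Nrp1* is lowest at E11.5 in both replicate numbers.

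The B-type plexins had differences of 0.37 and 0.21 between E12.5 and E10.5. *Plxnb2*, a receptor for class 4 semaphorins with roles in neural progenitors, had signals of 6.63 and 7.04 in the E10.5 arrays, 7.03 and 7.40 in the E11.5 arrays and 6.90 and 7.52 in the E12.5 arrays. The E12.5 and E10.5 arrays overlapped, and the SE of its difference was 0.356 (unadjusted p 0.330 in limma). For *Plxnb1*, the Sema4d receptor, the SE was 0.299, and the E11.5 arrays lay above both E10.5 arrays by a margin of at most 0.29.

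*Plxnc1*, the receptor of Sema7a, had signals of 6.04 and 6.33 in the E10.5 arrays, 5.80 and 6.14 in the E11.5 arrays and 6.10 and 6.40 in the E12.5 arrays. Its E12.5 and E10.5 arrays overlapped and differed by 0.07 with an SE of 0.314 (unadjusted p 0.840 in limma). *Plxnd1*, which binds Sema3e without a neuropilin and is prominent in blood vessels, was below its array's limit in all 6 arrays. Its signals were 5.27 and 4.66 in the E10.5 arrays, 4.86 and 4.50 in the E11.5 arrays and 4.84 and 4.54 in the E12.5 arrays. The difference of -0.28 between E12.5 and E10.5 (SE 0.346, unadjusted p 0.447 in limma) lies in this low range. Endothelial markers were also near the limit or below it, with 0 to 1 of 10 above the limit of any array and a summed signal of 7.96 and 7.65 (log2) at E12.5, against 8.29 and 7.64 at E10.5.

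*Nrp1*, the neuropilin that binds Sema3a and also VEGF, had its lowest signals at E11.5. Its signals were 6.47 and 6.95 in the E10.5 arrays, 6.20 and 5.90 in the E11.5 arrays and 6.45 and 6.95 in the E12.5 arrays. Both E11.5 arrays lay below all 4 others, and the E12.5 and E10.5 arrays were within 0.02 of each other in each replicate number. The log2 difference between E11.5 and E10.5 was -0.66 with an SE of 0.344 (unadjusted p 0.0955, adjusted p 1.0 in limma). For E12.5 against E11.5 it was 0.65 with the same SE (unadjusted p 0.0994), and for E12.5 against E10.5 it was -0.01. The 95% intervals were -1.47 to 0.15 for the first step and -0.16 to 1.46 for the second. Of the 6 arrays 4 lay above their own limit. Below it were the replicate 1 arrays at E10.5 (6.47 against a limit of 6.59) and at E12.5 (6.45 against 6.55). The replicate 1 array at E11.5 lay just above its limit (6.20 against 6.18), so the replicate 1 course runs along the limits of its arrays. Without the E10.5 replicate 1 array the first step was -0.90 with an SE of 0.351.

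Taking the 9 receptors as a group, 7 had a difference above 0 between E12.5 and E10.5, as had 8950 of 23332 clusters and 3727 of the 6720 clusters above the limit that name 1 gene. The median of the receptors was 0.21, against -0.10 over all clusters and 0.05 over those 6720. Within replicate 1 the median was 0.06 and within replicate 2 it was 0.48. The steps had medians of 0.14 (E11.5 against E10.5) and 0.28 (E12.5 against E11.5), with -0.07 and -0.02 over all clusters and 0.08 and -0.01 over those 6720. For *Plxna2*, *Plxna3* and *Plxna4*, and for 1 ligand, *Sema3a*, both E12.5 arrays lay above both E10.5 arrays. These 4 of 27 members stand beside 9.35% of all clusters, or 17.3% of the clusters above the limit that name 1 gene, so that the share of members is close to the background. The opposite held for 1 member, *Sema5b*, and for 14.0% of all clusters.

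The 18 ligands showed no common direction. Between E12.5 and E10.5, 9 had a difference above 0 and 9 below, and the median was -0.0038. It was -0.0077 for E11.5 against E10.5 and 0.01 for E12.5 against E11.5. As for the receptors, the median was lower between the replicate 1 arrays (-0.14) than between the replicate 2 arrays (0.22). A difference in medians between receptors and ligands was not tested.

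**Figure D2:**
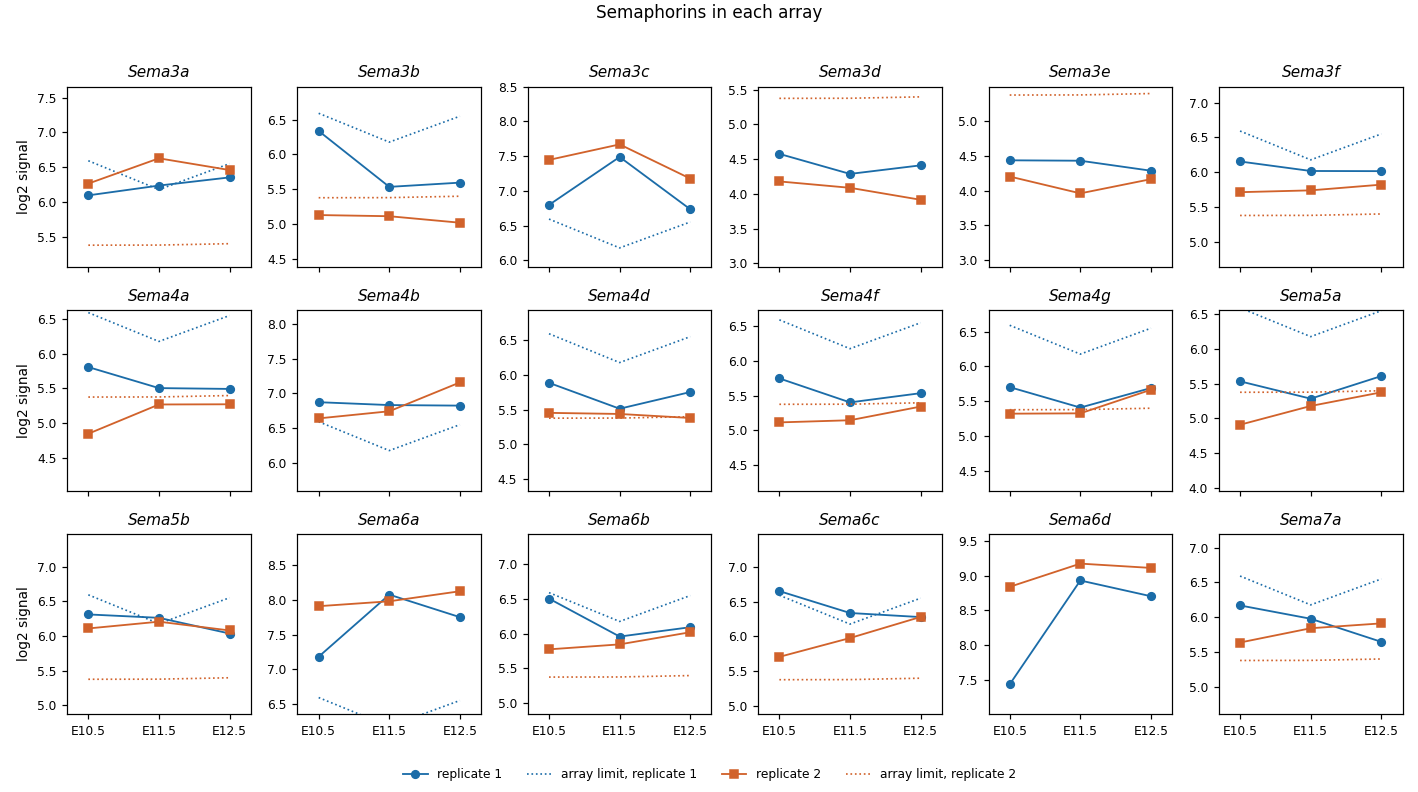
Log2 signal (y axis, a range of the same width in each panel) of the 18 semaphorins by stage (x axis), where each point is 1 array, solid lines join arrays with the same replicate number and dotted lines show each array's own detection limit where it falls in the panel. *Sema6d*, *Sema6a* and *Sema3c* have a replicate 1 array at E10.5 well below the E11.5 arrays, and *Sema3d* and *Sema3e* stay below the limits throughout.

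Class 6 semaphorins are transmembrane proteins that bind A-type plexins directly, and all 4 of them had means above the limit. *Sema6d*, a ligand of *Plxna1*, had signals of 7.44 and 8.84 in the E10.5 arrays, 8.93 and 9.18 in the E11.5 arrays and 8.70 and 9.11 in the E12.5 arrays. The replicate 1 array at E10.5 lay below all the others, which spanned 8.70 to 9.18. The E12.5 minus E10.5 difference was 0.77 with an SE of 0.484 (95% interval -0.37 to 1.91, unadjusted p 0.155 in limma), and that between E11.5 and E10.5 was 0.92 (unadjusted p 0.100). Without that array they were 0.07 (SE 0.333) and 0.21. *Sema6a*, the ligand of *Plxna2* and *Plxna4*, had the same low array, with 7.18 and 7.91 in the E10.5 arrays, 8.08 and 7.98 in the E11.5 arrays and 7.75 and 8.12 in the E12.5 arrays. Its E12.5 minus E10.5 difference was 0.39 with an SE of 0.356, and 0.03 without that array. *Sema6b* and *Sema6c* differed by -0.08 and 0.10 with their replicate numbers going opposite ways.

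Class 3 semaphorins are the secreted repellents that act through neuropilins. The one with the smallest p between E12.5 and E10.5 was *Sema3b*, a floor plate ligand for commissural axons, which was below each array's limit in all 6 arrays. Its signals were 6.34 and 5.13 in the E10.5 arrays, 5.53 and 5.11 in the E11.5 arrays and 5.59 and 5.02 in the E12.5 arrays. The replicate 1 array at E10.5 stood above the rest, the other 5 spanned 5.02 to 5.59, and the difference of -0.43 between E12.5 and E10.5 had an SE of 0.468 (unadjusted p 0.391 in limma) and was 0.18 without that array. *Sema3c*, singled out after its values were seen, was highest at E11.5, with 6.80 and 7.45 in the E10.5 arrays, 7.49 and 7.67 in the E11.5 arrays and 6.73 and 7.18 in the E12.5 arrays. Both E11.5 arrays lay above all 4 others, the lower of them narrowly (7.49 against 7.45 in an E10.5 array). The log2 differences were 0.46 for E11.5 against E10.5 (SE 0.353, unadjusted p 0.236 in limma) and -0.62 for E12.5 against E11.5 (unadjusted p 0.120). The first was 0.13 without the E10.5 replicate 1 array. *Sema3a*, the main ligand of *Nrp1*, had 6.09 and 6.26 in the E10.5 arrays, 6.24 and 6.63 in the E11.5 arrays and 6.35 and 6.46 in the E12.5 arrays. Its E12.5 minus E10.5 difference was 0.23 with an SE of 0.303. *Sema3f*, the ligand of neuropilin 2, differed by -0.02 with an SE of 0.317. *Sema3d* and *Sema3e* (differences of -0.21 and -0.09) were below the limit of all 6 arrays, the second being the ligand of *Plxnd1*.

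Of the 5 class 4 semaphorins, *Sema4b* alone had a mean above the limit. Its signals were 6.87 and 6.64 in the E10.5 arrays, 6.83 and 6.74 in the E11.5 arrays and 6.83 and 7.16 in the E12.5 arrays. The stages overlapped, and the E12.5 minus E10.5 difference was 0.23 with an SE of 0.301 (unadjusted p 0.461 in limma). *Sema4d*, the ligand of *Plxnb1*, differed by -0.10, and *Sema4a*, *Sema4f* and *Sema4g* differed by 0.05, 0.01 and 0.17. These 4 had means of at most 5.57 and lay above the limit of their own array in 0 to 2 of 6 arrays.

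Class 5 semaphorins carry thrombospondin repeats outside the cell and can act on A-type plexins. *Sema5a* had signals of 5.53 and 4.91 in the E10.5 arrays, 5.28 and 5.18 in the E11.5 arrays and 5.61 and 5.38 in the E12.5 arrays. None of its arrays lay above its own limit, and the E12.5 minus E10.5 difference was 0.27 with an SE of 0.333 (unadjusted p 0.441 in limma). *Sema5b* had 6.31 and 6.11 in the E10.5 arrays, 6.26 and 6.21 in the E11.5 arrays and 6.04 and 6.08 in the E12.5 arrays. Both E12.5 arrays lay below all 4 others, though by as little as 0.03, and the difference was -0.15 with an SE of 0.286. *Sema7a*, the anchored ligand of *Plxnc1*, had 6.17 and 5.64 in the E10.5 arrays, 5.98 and 5.84 in the E11.5 arrays and 5.64 and 5.91 in the E12.5 arrays. Its stages overlapped and differed by -0.12 with an SE of 0.324 (unadjusted p 0.712 in limma).

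**Figure D3:**
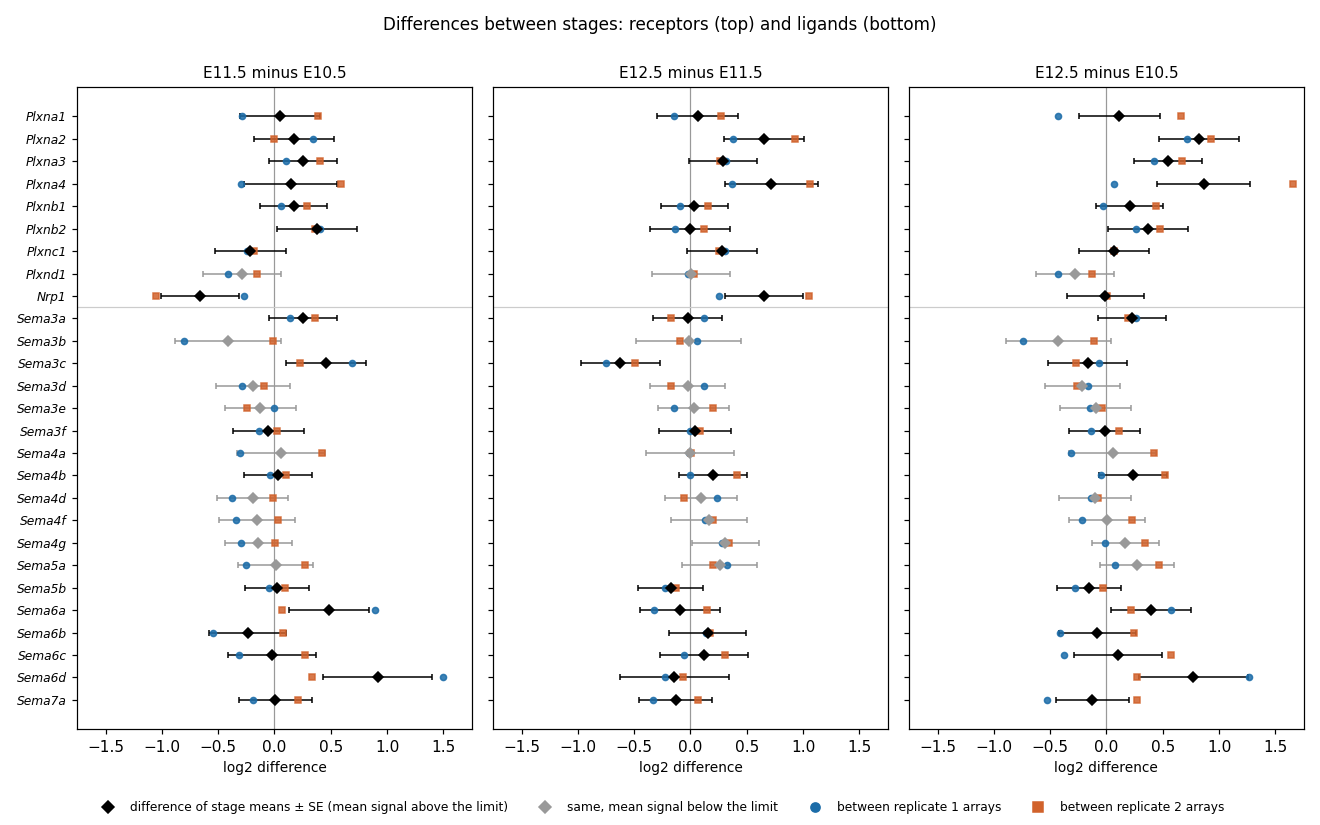
Log2 differences (x axis) of the 27 members for E11.5 minus E10.5, E12.5 minus E11.5 and E12.5 minus E10.5, where diamonds are differences of stage means with SE bars from the fit over all clusters (grey if the mean signal is below the limit), and circles and squares are differences between the replicate 1 and the replicate 2 arrays. *Plxna2*, *Plxna4* and *Sema6d* have the largest differences between E12.5 and E10.5 (0.82, 0.86 and 0.77), and the circle and square of *Plxna4* and *Sema6d* lie far apart.

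The order of stages can be read from single steps as well. Both E11.5 arrays lay above both E10.5 arrays for 5 members, *Plxna3*, *Plxnb1*, *Sema3c*, *Sema6a* and *Sema6d*, and for 9.48% of all clusters, or 14.9% of those above the limit that name 1 gene. They lay below for 1 member, *Nrp1*, and for 9.90% of all clusters, or 7.37% of those. From E11.5 on, both E12.5 arrays lay above both E11.5 arrays for 6 members, namely *Nrp1*, *Plxna2*, *Plxna4*, *Sema4g*, *Sema5a* and *Sema6b*. The background was 8.46% of all clusters, or 11.4% of those above the limit that name 1 gene. *Sema4g* and *Sema5a* had means below the limit. Among members above it, the order held for 3 of 8 receptors and 1 of 10 ligands. Both E12.5 arrays lay below both E11.5 arrays for 2 members, *Sema3c* and *Sema5b*. That held for 13.4% of all clusters, or 14.8% of those above the limit that name 1 gene. A descending order in both replicate numbers was found in 0 members and in 6.78% of all clusters. In the exact permutation test across the 3 stages 0 members reached the smallest p, against 4.44% of all clusters.

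Effectors carry the signal of plexins and neuropilins inside the cell. Of 32 effectors on the list 29 were measured and 25 lay above the limit, and 21 had a difference above 0 between E12.5 and E10.5, with a median of 0.11, beside 3727 of 6720 and 0.05 for the clusters above the limit that name 1 gene. At an unadjusted p under 0.05 3 were higher and 0 lower, with no adjusted call. Of all clusters 1.76% were higher and 2.22% lower at that level, and of the 6720 clusters 249 were higher and 86 lower. *Dpysl4*, a member of the collapsin response mediator proteins that act on microtubules, had 7.77 and 7.75 in the E10.5 arrays, 8.38 and 8.33 in the E11.5 arrays and 8.53 and 8.64 in the E12.5 arrays. Its stages did not overlap, and the E12.5 minus E10.5 difference was 0.83 with an SE of 0.282 (unadjusted p 0.0217, adjusted p 0.991 in limma). *Dpysl5*, of the same protein family, had 7.75 and 7.85 in the E10.5 arrays, 8.30 and 8.34 in the E11.5 arrays and 8.42 and 8.84 in the E12.5 arrays, a difference of 0.83 (unadjusted p 0.0287). *Fyn*, a tyrosine kinase bound to A-type plexins, differed by 1.08 (unadjusted p 0.0476), with signals of 8.18 and 9.42 in the E10.5 arrays, 9.73 and 9.56 in the E11.5 arrays and 9.66 and 10.09 in the E12.5 arrays. The replicate 1 array at E10.5 was low for *Fyn*, for *Dpysl2* (7.21 against 9.28 in its fellow array), for *Crmp1* (7.22 against 9.10) and for *Cfl1* (5.31 against 7.77). The last 3 were singled out after their values were seen. This is the array in which *Sema6d* and *Sema6a* were low. Without it the E12.5 minus E10.5 difference was 0.84 for *Dpysl4*, 0.78 for *Dpysl5* and 0.46 for *Fyn*.

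Of 14 co-receptors, 12 were measured, 6 lay above the limit and 2 were higher at E12.5 at an unadjusted p under 0.05, with no adjusted call and none lower, beside the same 249 of 6720 clusters. *Chl1*, an adhesion molecule that binds *Nrp1*, had signals of 8.08 and 8.64 in the E10.5 arrays, 8.74 and 8.92 in the E11.5 arrays and 9.34 and 9.73 in the E12.5 arrays. Its stages did not overlap and the E12.5 minus E10.5 difference was 1.18 with an SE of 0.336 (unadjusted p 0.00994, adjusted p 0.991 in limma), or 0.90 without the E10.5 replicate 1 array. *Nrcam*, an adhesion molecule that joins neuropilin 2, had 8.18 and 8.56 in the E10.5 arrays, 9.08 and 9.15 in the E11.5 arrays and 8.94 and 9.29 in the E12.5 arrays. It differed by 0.75 with an SE of 0.313 (unadjusted p 0.0474), or 0.56 without that array. The VEGF genes, whose products include other ligands of neuropilins, were all 5 measured, with *Vegfd* and *Pgf* below the limit. All had a difference below 0 between E12.5 and E10.5. So had 14382 of 23332 clusters, and 2993 of the 6720 clusters above the limit that name 1 gene. Without the E10.5 replicate 1 array *Vegfb*, *Vegfd* and *Pgf* had differences of 0.11, 0.09 and 0.26, and *Vegfa* had -0.37. *Vegfc* had 7.10 and 7.85 in the E10.5 arrays, 7.34 and 7.18 in the E11.5 arrays and 6.43 and 6.43 in the E12.5 arrays. Both E12.5 arrays lay below all 4 others, and the difference from E10.5 was -1.05 with an SE of 0.347 (unadjusted p 0.0193, adjusted p 0.991 in limma), or -1.42 without the E10.5 replicate 1 array.

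**Figure D4:**
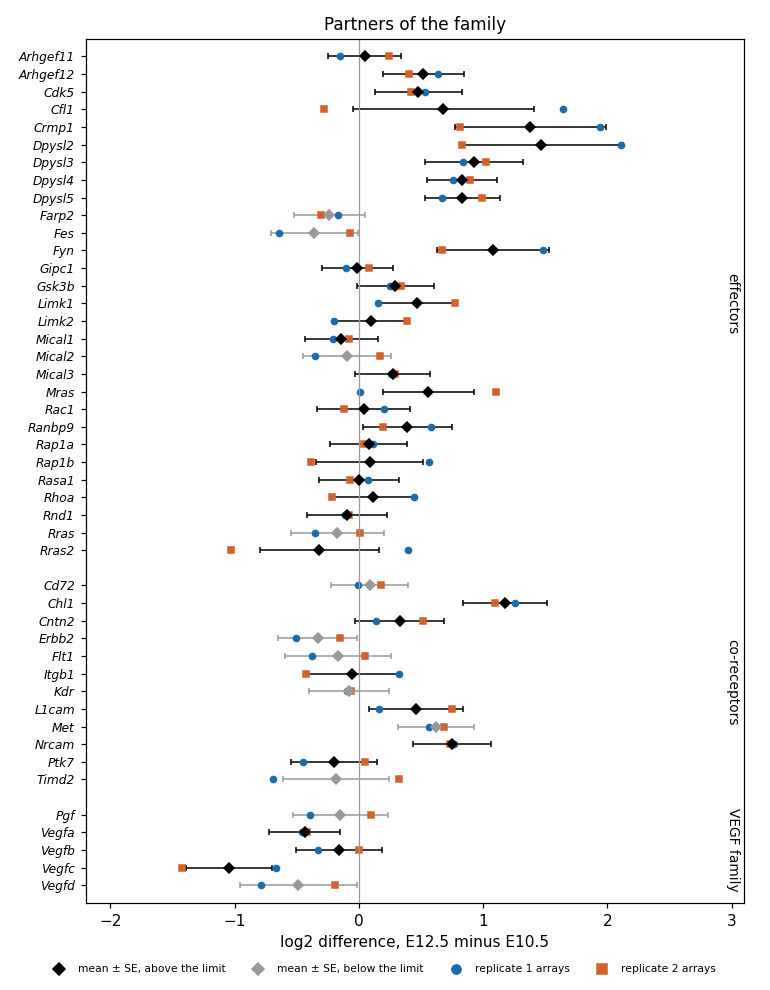
Log2 difference of E12.5 minus E10.5 (x axis) of the measured effectors, co-receptors and VEGF genes (y axis), where diamonds are differences of stage means with SE bars (grey if the mean signal is below the limit), and circles and squares are differences between the replicate 1 and the replicate 2 arrays. *Chl1*, *Dpysl4* and *Dpysl5* have both replicate numbers near their mean (1.18, 0.83 and 0.83), while *Cfl1* and *Dpysl2* have them far apart.

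The lists of cell type markers are described for these 6 arrays, and their differences between stages were not tested as lists. The 11 neuronal genes had a median difference of 0.62 between E12.5 and E10.5, with 3 higher at an unadjusted p under 0.05 beside the 249 of 6720 clusters and no adjusted call, and a summed signal of 13.16 and 13.51 (log2) at E12.5, against 12.99 and 13.05 at E10.5. The 11 progenitor genes had a median of -0.44, with 2 lower beside the 86 of 6720 and no adjusted call, and a summed signal of 12.27 and 12.41 at E12.5, against 12.42 and 12.77 at E10.5. Dorsal interneuron genes had a median of 0.02 and no adjusted call. At an unadjusted p under 0.05 in limma 1 was higher (*Pax2*, 1.32, p 0.0138) and 1 lower (*Lhx9*, -0.72, p 0.0402). The lists of other cell types had medians below 0, against -0.10 over all clusters. The median was -0.33 for neural crest genes (5 of 8 above the limit) and -0.29 for mesenchymal genes (2 of 10). It was -0.32 for roof plate genes (5 of 8) and -0.37 for floor plate genes (0 of 6). The neural crest and roof plate lists each had 1 gene lower at that level, beside the 86 of 6720 clusters, and 0 higher. The mesenchymal list had 1 lower, *Postn*, and 0 higher, beside 2.22% of all clusters lower. The mean of *Postn* lay below the limit (4.87), and its E10.5 arrays were far apart (5.33 and 8.08). The part of these differences in the values of the A-type plexins, *Dpysl4*, *Dpysl5* and *Chl1* was not tested. In sorted bulk cells, fewer cells of a type and less RNA per cell cannot be told apart.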

How the data were processed

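RNA from the sorted GFP+ cells was hybridised to 6 Affymetrix mouse exon arrays, 2 for each of 3 stages. The deposited table holds log2 signals for 23332 transcript clusters, which the authors normalized and summarised with oligo on the mm9 assembly, per the submitters' processing notes. The tool's version and its normalization settings are not given in the sources used here. The values were used as deposited, with no filter, and every array has the same number of clusters, so that precision is limited by the number of arrays. Among the clusters, 14996 name 1 gene, 1019 name several and 7317 have no name in the platform's table used here. Gene names of the family were matched to a RefSeq gene table. No coordinates are given.

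The comparisons of stages used limma 3.58.1 in R 4.3.3, with a mean per stage over all 6 arrays, moderated variances, two-sided tests and Benjamini-Hochberg adjustment over all clusters. The threshold was an adjusted p under 0.05, and counts at an unadjusted p under 0.05 are given as a description. Intervals of 95% use the moderated variance. Since each stage has 2 arrays, an exact permutation test of 2 stages cannot go below p = 0.333. Across the 3 stages it used the 90 arrangements of the 6 arrays, which are 15 distinct partitions. Group medians have no test. Summed signals are log2 of the sum of the linear signals of a list's genes.

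The members and the lists of effectors, co-receptors, VEGF genes and cell type markers were chosen with earlier results of these data known. Values in every array are given by rule for members past an unadjusted p under 0.05 in any comparison, of which there were 0, and for the member of each class with the smallest p between E12.5 and E10.5. In each pathway list they are given for the gene with the smallest p and any past an unadjusted p under 0.05. Other genes given in full were chosen after their values were seen. Kdr is on both the co-receptor and the endothelial list.

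Alternatives were fits with a replicate block, with a trend of the prior variance on signal, with a robust prior, after quantile normalization or with array medians set equal, with tests limited to clusters over the detection limit or to those with 1 gene name, only the arrays of the 2 compared stages, no moderation, a linear term in embryonic day, only members above the limit, and leaving out each array in turn. A member's difference was called reversed if its sign turned and it moved by more than its SE. Only the main fit was tested on simulated data, in which the arrays vary independently of each other. Figures were drawn in Python 3.11.15 with pandas 2.3.3 and matplotlib 3.10.9.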

Additional observations from a re-analysis of the deposited data

How the results depend on the processing

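No member passed the adjusted threshold under any alternative, and with 2 arrays a stage the 95% intervals reached 0.67 to 1.14 log2 units to either side. The number of clusters past it was 0 in every alternative except without the E10.5 replicate 2 array. Over the leave-one-out fits it ranged from 0 to 325 for E12.5 against E10.5 and from 0 to 250 for E11.5 against E10.5, with 0 members among them. Without that array E10.5 rests on the replicate 1 array alone, which stands apart and is assumed to vary like the other arrays. The median of the ligands ranged over these fits from -0.24 to 0.16 for E12.5 against E10.5 and from -0.29 to 0.15 for E11.5 against E10.5. The receptor median ranged from 0.03 to 0.46 for E12.5 against E10.5 and from -0.07 to 0.23 for E11.5 against E10.5.

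For 4 ligands the sign turned and the value moved by more than its SE with 1 of the E10.5 arrays left out, and the cause was not tested. The ranges of these 4 ligands were -1.03 to 0.18 (*Sema3b*), -0.43 to 0.54 (*Sema4a*), -0.45 to 0.28 (*Sema6b*) and -0.37 to 0.57 (*Sema6c*) for E12.5 against E10.5. For E11.5 against E10.5 they were -1.02 to 0.19, -0.42 to 0.54, -0.60 to 0.13 and -0.50 to 0.45. Other members also turned sign, by less than their SE. For *Plxna2* (E12.5 against E10.5) limma's unadjusted p was under 0.05 in 8 alternatives, quantile normalization (0.0225) and the replicate block (0.0152) included, and its adjusted p was at least 0.181 in each. Centring each array on its median moved the median of all clusters to 0.03, the ligands to 0.13 and the receptors to 0.34.

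Samples with the same number share only that number in the labels. Their deviations from the stage means correlated at 0.46, 0.47 and 0.48 across clusters in the 3 pairs of stages. With the replicate block 0 clusters passed the adjusted threshold in each comparison, and 2098, 1243 and 637 clusters passed unadjusted (E12.5 against E10.5, E11.5 against E10.5, E12.5 against E11.5), against 928, 465 and 212 without it. The members among them were *Plxna2* and *Plxna3*, then *Sema6d*, then *Plxna2* and *Sema3c*. Without the E10.5 replicate 2 array, 5174 and 4826 clusters passed unadjusted in the 2 comparisons with E10.5, *Plxna2*, *Sema3b* and *Sema6d* among the first and *Sema3b*, *Sema6a* and *Sema6d* among the second. Other clusters of a member could not be tried, since each member has 1.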
